A study of Mus musculus with 6 samples.

Results

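The genes described here are the G protein-coupled receptors and the proteins that carry their signal to and from cyclic AMP (cAMP), measured in inguinal fat of mice that gained much or little weight on one diet. A gene was included when its annotated symbol belonged to 1 of a fixed set of families: receptors for adrenaline, adenosine, serotonin, fatty acids and hydroxycarboxylic acids, prostanoids, lysophospholipids, nucleotides, melanocortins and neuropeptide Y, the receptor partners Ramp1 and Ramp3, receptors still named by a Gpr number, G protein subunits, RGS proteins, adenylyl cyclases, phosphodiesterases, protein kinase A subunits and their anchoring proteins, receptor kinases and arrestins. The rule left out Gnas, Pde3b and Rgs5. It matched 190 genes on 197 probes, and 94 of them had a value on all 6 arrays, out of 8596 genes of the array with 1 symbol and a value on every array. For the other members, 48 had a value on 1 to 5 arrays and 48 on none. The choice used symbols only and no measured value.

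The high gainers were male C57BL/6J mice whose weight gain was high after 4 weeks on the high saturated fat diet D12331, begun at 8 weeks of age, and the low gainers were males of the same inbred strain, age, housing and diet that had gained little. The inguinal fat RNA of 8 mice was combined into 1 pool per phenotype, and each pool was hybridized to 3 Applied Biosystems one-color arrays. The arrays of a pool are therefore technical repeats. All errors and p-values below measure the spread between arrays and not between mice, and n counts arrays.

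Most receptors of this class act through heterotrimeric G proteins. Gs raises and Gi lowers the activity of adenylyl cyclase, the cAMP formed activates protein kinase A, and phosphodiesterases remove it. RGS proteins speed the shut-off of G protein alpha subunits, and receptor kinases and arrestins silence the receptors themselves. In fat cells this route is best known for setting lipolysis, with receptors that couple to Gs promoting it and receptors that couple to Gi, such as those for lactate, nicotinic acid and prostaglandin E2, restraining it.

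The arrays gave values for 18018 to 20605 of 33012 probes. Pearson's r of the log2 signals across probes, which are not independent replicates, was 0.988 to 0.994 between arrays of 1 pool and 0.972 to 0.98 between pools. A gene was called changed when its limma p-value, adjusted by Benjamini-Hochberg over all 15821 probes tested, was under 0.01 and its change was at least 1.5-fold. Among the 94 members, 5 (5.32%) were called higher and 10 (10.6%) lower in the high gainers, against 2.50% higher, 3.99% lower and 6.50% in either direction among all tested probes. The arrays of the 2 pools did not overlap for 47 members (50%), 23 of them higher and 24 lower in the high gainers, against 36.6% of all tested probes, 20.3% higher and 16.3% lower. Before adjustment 20 members were higher and 22 lower (limma p under 0.05), against 17.4% and 13.6% of all probes. The median log2 ratio, high over low gainers, was -0.04 over the members and 0.03 over all tested probes. A signal cannot show whether cells of a type were fewer or held less of the RNA, because whole fat pads were measured.

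**Figure D1:**
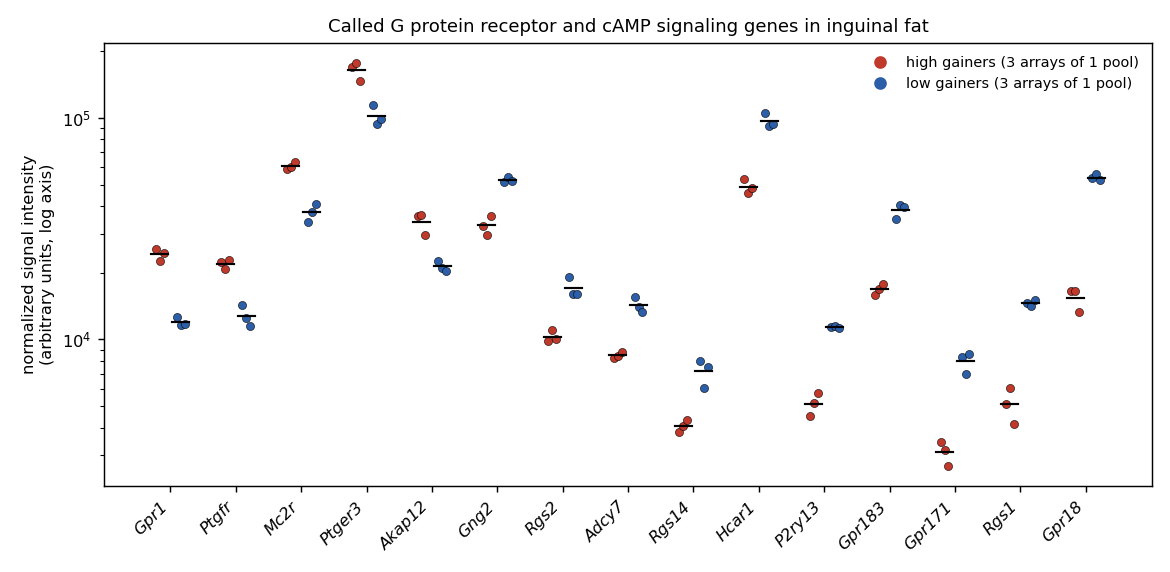
Signal (log scale) of the 15 members called changed, with 1 point per array, high-gainer arrays in red and to the left of the low-gainer arrays in blue. The arrays of the pools do not overlap for any of the 15 genes, and the widest gap is that of Gpr18, at 13295 to 16499 in high gainers and 52570 to 55565 in low gainers.

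Receptors for prostanoids and peptides held 4 of the 5 members that were called higher in high gainers. Gpr1, a receptor for the adipose hormone chemerin, had signals of 25667, 22632 and 24492 in high gainers and 12649, 11576 and 11783 in low gainers. Every high-gainer array was thus well above every low-gainer array, a 2.02-fold difference (log2 ratio 1.01 ± 0.10, SE; limma adjusted p = 0.000667) that was called whichever array was left out. Mc2r, the corticotropin receptor, which couples to Gs and promotes lipolysis in rodent fat cells, read 58810, 59896 and 63366 in high gainers and 33762, 37502 and 41040 in low gainers. It was 1.63-fold higher without overlap (log2 ratio 0.70 ± 0.11, SE; limma adjusted p = 0.00474), but the call was lost without any 1 of the 6 arrays, with adjusted p-values of 0.011 to 0.0233.

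Of 5 prostanoid receptors with values on all arrays, 2 were called higher and none was called lower, against 2.50% and 3.99% of all tested probes. Ptgfr, the prostaglandin F2α receptor, which couples to Gq, had 22249, 20839 and 22906 in high gainers and 14271, 12484 and 11491 in low gainers. The groups lay apart by 1.73-fold (log2 ratio 0.79 ± 0.11, SE; limma adjusted p = 0.00353). Ptger3, the prostaglandin E2 receptor EP3 that lowers cAMP through Gi, read 169830, 177218 and 146889 in high gainers and 114270, 93651 and 98782 in low gainers, again without overlap and 1.61-fold higher (log2 ratio 0.69 ± 0.12, SE; limma adjusted p = 0.00921). Leaving out 1 array removed the Ptger3 call in all 6 refits and the Ptgfr call in every refit but that without low gainers replicate 1. The remaining receptors of the group were not called. The Gs-coupled prostaglandin E2 receptors had opposite signs, Ptger2 a log2 ratio of 0.35 (limma adjusted p = 0.0477) and Ptger4 one of -0.50 (limma adjusted p = 0.0337), each without overlap of the arrays. Ptgir, the prostacyclin receptor, had a ratio of 0.24. On the ligand side, Ptgis, which makes prostacyclin, had signals of 11901, 10986 and 11623 in high gainers and 5937, 6337 and 5252 in low gainers. It was 1.97-fold higher, with no overlap (limma adjusted p = 0.00102). The only other enzyme or ligand gene with a log2 ratio beyond 0.5 among the 15 measured was Ptgds, a prostaglandin D2 synthase, at -0.84 and not called (limma adjusted p = 0.0194).

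The receptor partners of the RAMP family had negative log2 ratios but were not called. Ramp1, which joins the receptor Calcrl to form the CGRP receptor, had 27687, 29242 and 30299 in high gainers and 43834, 40193 and 42473 in low gainers. The arrays did not overlap, and the change of -0.54 on the log2 scale passed the adjusted threshold (limma adjusted p = 0.00844) but was 1.45-fold and so under the fold required. Ramp1 was called lower when adipocyte markers set the scale. The arrays of Ramp3 overlapped, and its log2 ratio was -0.42 (limma adjusted p = 0.145). Calcrl itself was blank on all 6 arrays.

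Receptors for metabolites showed 1 change among 5. Hcar1, the lactate receptor, which couples to Gi and restrains lipolysis in fat cells, had signals of 53024, 45571 and 48065 in high gainers and 105141, 91729 and 93855 in low gainers. High-gainer arrays held about the same level as each other and were all far below the low-gainer arrays, a 1.98-fold lower signal (log2 ratio -0.99 ± 0.11, SE; limma adjusted p = 0.00102). The call held whichever array was left out. Hcar2, the receptor for nicotinic acid and β-hydroxybutyrate and the neighboring gene on chromosome 5, read 11608, 13092 and 11237 in high gainers and 11717, 13291 and 13506 in low gainers. Its arrays overlapped and its log2 ratio was -0.10 (limma adjusted p = 0.583). The short-chain fatty acid receptor Ffar2 and the long-chain fatty acid receptor Ffar4 had log2 ratios of 0.05 and 0.07, both of which turned negative when adipocyte markers set the scale (-0.11 and -0.10). The promoter of Hcar1 is printed because this gene was called lower while the paralog beside it was not. It covers the 250 bases before the RefSeq start (GRCm38.p6, 5′ to 3′), and capitals mark the ETS motif GGAAGT or ACTTCC, searched for on both strands.
Hcar1 promoter, chr5:123880004-123880253, minus strand: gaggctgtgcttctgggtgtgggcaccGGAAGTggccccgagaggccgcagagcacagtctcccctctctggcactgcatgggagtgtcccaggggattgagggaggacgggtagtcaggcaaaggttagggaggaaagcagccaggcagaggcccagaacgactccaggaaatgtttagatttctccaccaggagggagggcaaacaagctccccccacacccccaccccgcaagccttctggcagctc

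The 10 members called lower included 5 receptors, and 4 of these 5 carry a Gpr number or bind nucleotides. Gpr18, a receptor best known from lymphocytes, had signals of 16499, 16457 and 13295 in high gainers and 53258, 55565 and 52570 in low gainers. No high-gainer array came near a low-gainer array, and this was the largest change of any measured member, 3.51-fold lower (log2 ratio -1.81 ± 0.11, SE; limma adjusted p = 0.000206). Gpr183, the oxysterol receptor EBI2 that positions B cells within lymphoid tissue, read 15854, 16864 and 17714 in high gainers and 34794, 40633 and 39502 in low gainers. It too was separate on every array, and 2.28-fold lower (log2 ratio -1.19 ± 0.10, SE; limma adjusted p = 0.000483). Gpr171, an orphan-named receptor present on lymphocytes, had 3438, 3156 and 2674 in high gainers and 8291, 6965 and 8619 in low gainers. Its signal was 2.58-fold lower without overlap (log2 ratio -1.37 ± 0.13, SE; limma adjusted p = 0.000731). P2ry13, a receptor for ADP that couples to Gi, read 4490, 5174 and 5710 in high gainers and 11343, 11457 and 11248 in low gainers, and so was 2.23-fold lower, with tightly grouped low-gainer arrays (log2 ratio -1.15 ± 0.11, SE; limma adjusted p = 0.000695). All 4 calls held in each of the 6 refits that left out 1 array. The mean signals of Gpr171 and P2ry13 lie in the lowest 33.3% of tested probes, where signals are dim.

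Gpr18 and Gpr183 are adjacent protein-coding genes on chromosome 14 in the RefSeq annotation, and their promoters are shown because both neighbors were lower. Each line again gives 250 bases before the start in GRCm38.p6, 5′ to 3′. Capitals mark the ETS motif as above, which is in the Gpr183 window and not in that of Gpr18.
Gpr18 promoter, chr14:121915889-121916138, minus strand: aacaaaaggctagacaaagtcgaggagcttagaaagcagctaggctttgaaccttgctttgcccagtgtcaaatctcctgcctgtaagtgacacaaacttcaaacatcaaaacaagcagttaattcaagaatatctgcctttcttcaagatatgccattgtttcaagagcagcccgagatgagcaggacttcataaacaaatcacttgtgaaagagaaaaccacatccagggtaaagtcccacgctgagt
Gpr183 promoter, chr14:121965194-121965443, minus strand: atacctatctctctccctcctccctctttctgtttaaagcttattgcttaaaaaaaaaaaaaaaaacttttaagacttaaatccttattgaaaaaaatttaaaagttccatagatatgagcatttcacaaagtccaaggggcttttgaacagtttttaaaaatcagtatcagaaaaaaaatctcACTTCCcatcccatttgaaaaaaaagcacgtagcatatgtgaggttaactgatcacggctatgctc

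The other measured receptors of immune cells were not called. Gpr65, a proton-sensing receptor, had a log2 ratio of -0.99 (limma adjusted p = 0.0117), with 4860, 5054 and 3465 in high gainers and 10614, 8010 and 7790 in low gainers. The arrays lay apart but their scatter was wide, and Gpr65 was called when adipocyte markers set the scale, with the signal offset and with an intensity trend in the fit. S1pr4, a lymphocyte receptor for sphingosine 1-phosphate, had 4700, 5243 and 5676 in high gainers and 7660, 7743 and 7795 in low gainers. Its change of -0.57 passed the adjusted threshold (limma adjusted p = 0.00958) and, at 1.49-fold, missed the fold. S1pr4 was called lower when adipocyte markers set the scale. The signals of Gpr65 and S1pr4 were dim. The nucleotide receptors P2ry12, P2ry14, P2ry6 and P2ry10b had log2 ratios of -0.19, -0.21, 0.01 and -0.65, and the lymphocyte and macrophage receptors Gpr34 and Gpr132 had -0.04 and -0.15 (signs that changed when 1 array was left out), all with limma adjusted p-values of 0.0953 or more.

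Lysophospholipid receptors of vessels and stroma gave no call. S1pr1, the main sphingosine 1-phosphate receptor of endothelium, had a mean signal of 69859 ± 1100 in high gainers and 72121 ± 6994 in low gainers (SD, n = 3 each), a log2 ratio of -0.04. S1pr2, S1pr3 and Lpar6 had log2 ratios of 0.26, 0.15 and 0.08. None of the 5 receptors in the group was called by limma, with 1 gene up and 1 down at an unadjusted p under 0.05 and none by the test of the study's methods. Among the further Gpr-named receptors, Gpr4, a proton-sensing receptor of endothelium, had a log2 ratio of 0.33, Gpr153 one of 0.35 and Gpr146 one of 0.25, and none of the 3 was called (lowest limma adjusted p = 0.0791).

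**Figure D2:**
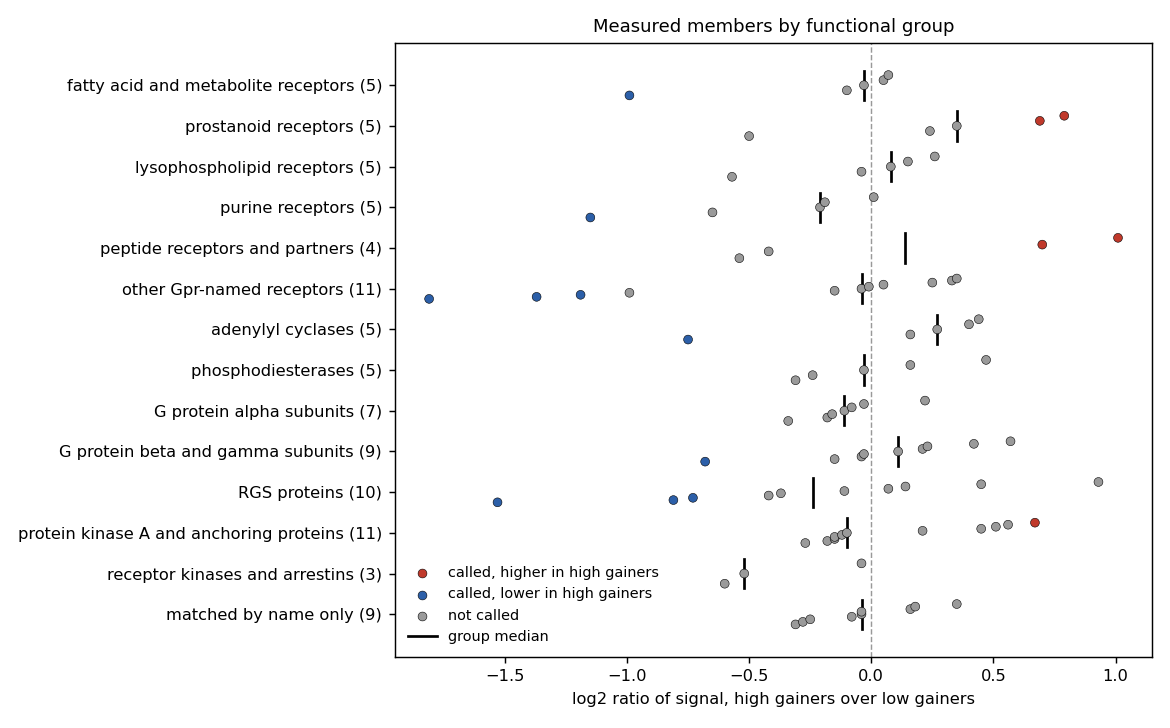
Log2 ratio, high over low gainers, of each of the 94 members by functional group, with members called higher in red, called lower in blue and not called in gray. Called members of the RGS and Gpr-named groups lie below 0, and those of the prostanoid and peptide receptor groups above 0.

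RGS proteins held 3 of the 10 lower calls. Of 10 measured, 3 were called lower and none higher, against 3.99% and 2.50% of all tested probes. The arrays lay apart in 5 that were lower and 3 that were higher, against 16.3% and 20.3% of all tested probes. All 3 called genes are on the list of members known from leukocytes given below. Rgs1, which acts on Gi and Gq in B and T cells, had signals of 5133, 6009 and 4170 in high gainers and 14610, 14117 and 14986 in low gainers. Its high-gainer arrays were all far below the others, 2.89-fold lower (log2 ratio -1.53 ± 0.14, SE; limma adjusted p = 0.000588), in each of the 6 refits. Rgs2, which acts chiefly on Gq, read 9788, 11025 and 9994 in high gainers and 19181, 16054 and 16104 in low gainers. The pools did not overlap and Rgs2 was 1.66-fold lower (log2 ratio -0.73 ± 0.11, SE; limma adjusted p = 0.00492), a call lost in every refit without 1 array, with adjusted p-values of 0.0112 to 0.0298. Rgs14, a regulator of Gi that also binds Ras-like proteins, had 3811, 4082 and 4316 in high gainers and 7961, 6028 and 7505 in low gainers. It was 1.75-fold lower (log2 ratio -0.81 ± 0.13, SE; limma adjusted p = 0.00603), with the low-gainer arrays more scattered than the others and a signal in the dim range, and the call was kept only without low gainers replicate 2. Rgs10 and Rgs19 had log2 ratios of -0.42 and -0.37 with separate arrays (limma adjusted p = 0.0476 and 0.0504), and Rgs18, expressed in platelets and myeloid cells, one of -0.11. Rgs4 and Rgs6, both dim, pointed the other way at 0.93 and 0.45 without a call (limma adjusted p = 0.11 and 0.104). Rgs5, the pericyte gene left out by the rule, had a ratio of 0.73 (limma adjusted p = 0.0117).

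Rgs1 and Rgs2 lie on chromosome 1 with Rgs13, not measured on all arrays, between them. The promoter of Rgs2 is printed because it is from 1 of the 2 called members with a promoter entry that hold the core of the cAMP response element, TGACG or CGTCA, the other being Adcy7. Capitals mark this motif in the 250 bases before the start (GRCm38.p6, 5′ to 3′).
Rgs2 promoter, chr1:144004150-144004399, minus strand: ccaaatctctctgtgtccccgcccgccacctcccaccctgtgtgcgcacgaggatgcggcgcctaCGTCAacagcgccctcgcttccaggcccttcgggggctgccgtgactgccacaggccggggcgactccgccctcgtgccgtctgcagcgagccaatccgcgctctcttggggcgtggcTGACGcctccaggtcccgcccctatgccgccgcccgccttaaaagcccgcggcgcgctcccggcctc
Of the members, 75 had a promoter entry in RefSeq, 10 of them called, and genes can have several. The cAMP response element core was in 17.7% of 124 member promoters and 17.8% of all 32851 promoters. The ETS motif was in 17.7% of the member promoters and 19.7% of all, and the nuclear receptor half-site AGGTCA or TGACCT in 14.5% and 14%. Called members with the half-site were Adcy7, Gpr1 and Ptgfr, and those with the ETS motif were Adcy7, Gpr183 and Hcar1. The member shares were thus near those of all promoters for the 3 motifs, which describe letters in a window and not binding.

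**Figure D3:**
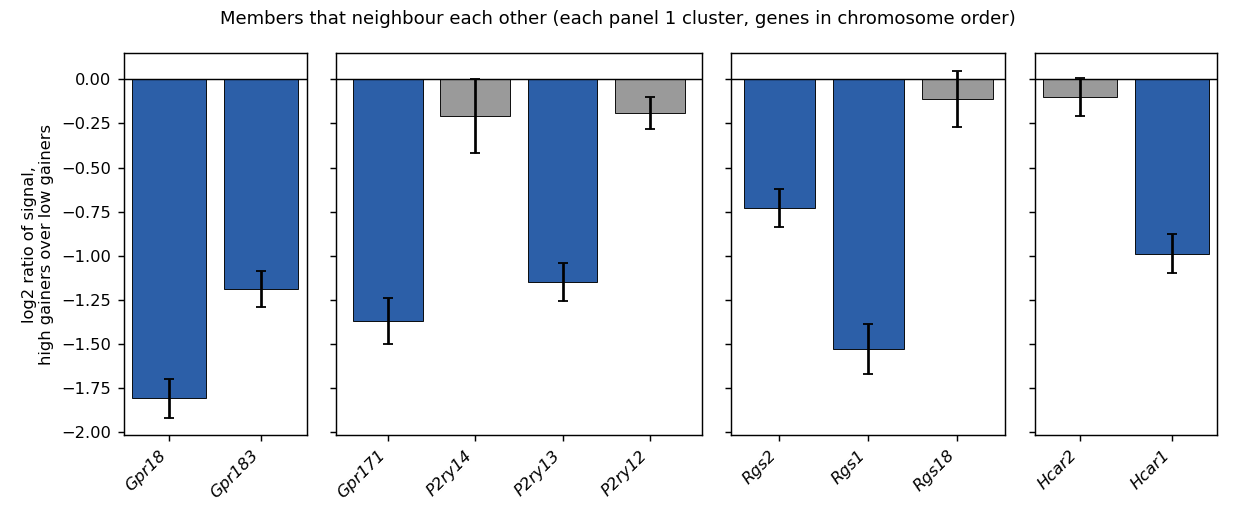
Log2 ratio, high over low gainers, of members that lie near each other, in gene order, with 1 panel per cluster, bars for the ratio, whiskers for its SE, blue for genes called lower and gray for genes not called. Gpr18 and Gpr183 were both lower, whereas Hcar2 beside Hcar1 and P2ry14 and P2ry12 beside Gpr171 and P2ry13 were close to 0.

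Neighboring members of 1 family did not all move together. On chromosome 3 the order was Gpr171, P2ry14, 1 other protein-coding gene, P2ry13 and P2ry12, with log2 ratios of -1.37, -0.21, -1.15 and -0.19. On chromosome 1 Rgs18, with a ratio of -0.11, was separated from Rgs1 by 1 gene. The plot of adjacent members shows called genes beside genes with ratios near 0 in 3 of these clusters.

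Among the G protein subunits 1 was called. Gng2, a gamma subunit abundant in leukocytes, had signals of 32557, 29751 and 35933 in high gainers and 51127, 54075 and 51966 in low gainers, the only call among 9 beta and gamma subunits. The arrays lay apart, and Gng2 was 1.6-fold lower (log2 ratio -0.68 ± 0.10, SE; limma adjusted p = 0.00486), but its other tested probe gave -0.22 (limma adjusted p = 0.202) and the call was kept only without high gainers replicate 3. Gng7 and Gng11 had positive ratios of 0.57 and 0.42 (limma adjusted p = 0.0184 and 0.0476) with separate arrays, and Gng5 and Gng10 had 0.21 and -0.15. No alpha subunit was called by limma among 7 measured, with 1 lower at an unadjusted p under 0.05 and none by the methods' test. The subunits of Gi, Gnai2 and Gnai3, had log2 ratios of -0.11 and -0.03, those of the Gq class, Gna11 and Gnaq, had 0.22 and -0.18, and Gna13, of the G12 class, had -0.34. The other tested probe of Gna13 gave -0.13 (limma adjusted p = 0.49). Gnas, the Gs subunit outside the rule, had a log2 ratio of 0.23.

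Adenylyl cyclases, which make cAMP, differed in sign. Adcy7, an isoform of hematopoietic cells, had signals of 8218, 8448 and 8759 in high gainers and 15526, 14010 and 13322 in low gainers. High-gainer arrays were close together and all below the others, 1.68-fold lower (log2 ratio -0.75 ± 0.10, SE; limma adjusted p = 0.00261), and the call was lost without high gainers replicate 1, high gainers replicate 2 or low gainers replicate 2. Adcy9, a widely expressed isoform, read 17576, 17020 and 17780 in high gainers and 13265, 12500 and 12832 in low gainers. It was separate on all arrays at a log2 ratio of 0.44, under the fold threshold (limma adjusted p = 0.0143). Adcy4 and Adcy6 had log2 ratios of 0.40 and 0.16, the second of which was -0.01 when adipocyte markers set the scale.

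Phosphodiesterases, which degrade cyclic nucleotides, gave no call by limma among 5, with 1 higher at an unadjusted p under 0.05 and none by the methods' test. Pde8a, which is specific for cAMP, had the largest log2 ratio, 0.47 (limma adjusted p = 0.0498). Pde4b, the cAMP phosphodiesterase of leukocytes, had -0.31, Pde5a, specific for cyclic GMP, -0.24, and Pde2a, which cyclic GMP stimulates, 0.16, all with limma adjusted p-values of 0.22 or more.

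Among 11 genes of protein kinase A and its anchors, 1 was higher. Akap12, a scaffold for protein kinases A and C, had signals of 35981, 36337 and 29617 in high gainers and 22614, 21047 and 20341 in low gainers. The arrays did not overlap, and Akap12 was 1.59-fold higher (log2 ratio 0.67 ± 0.11, SE; limma adjusted p = 0.00836), a call kept only without high gainers replicate 3. Akap2 and Akap7 had positive ratios of 0.56 and 0.51 (limma adjusted p = 0.0327 and 0.0497), and Akap10 had -0.18. No subunit of the kinase was called. Prkar2b, the main regulatory subunit of fat cells, had a mean of 183060 ± 26479 in high gainers and 195165 ± 14833 in low gainers (SD, n = 3 each), a log2 ratio of -0.10, and Prkar1a, Prkaca and Prkar2a had ratios of -0.15, -0.27 and 0.45, none called.

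Receptor kinases and arrestins had no call by limma among 3, with 2 lower at an unadjusted p under 0.05. Grk6, a receptor kinase of immune cells among others, had 6064, 5129 and 5541 in high gainers and 7787, 7985 and 9570 in low gainers. Its arrays were separate at a log2 ratio of -0.60 (limma adjusted p = 0.0154), and the methods' test without adjustment did call it. Grk6 was dim, and it was also called lower when adipocyte markers set the scale. Arrb2, which arrests activated receptors, had -0.52 (limma adjusted p = 0.0593), and Grk5 had -0.04. Another 9 measured genes matched a symbol of the rule but were not counted in the families above. At an unadjusted limma p under 0.05, 1 gene was up and 1 down, and none of the 9 was called by limma or by the methods' test. Their log2 ratios ran from -0.31 in Gpr137c and -0.28 in Gpr137b to 0.18 in Pde4dip and 0.35 in Gpr180.

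A list of members known for high expression in blood leukocytes held 27 measured genes, of which none was called higher and 9 (33.3%) were called lower by limma, with 17 down and none up before adjustment (p under 0.05). Among all tested probes, 3.99% were called lower and 13.6% were lower before adjustment. The 9 genes called on the list were Gpr18, Gpr183, Gpr171, P2ry13, Rgs1, Rgs2, Rgs14, Gng2 and Adcy7. The median log2 ratio was -0.50 over these 27 genes and 0.11 over the 67 other members, of which 5 were higher and 1, Hcar1, was lower. Leaving the leukocyte genes out therefore left 5 higher and 1 lower calls. The list was drawn up with the members' values already reported, so its count is a description.

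Marker genes of lymphocytes were also lower in high gainers. All 8 measured B lymphocyte markers were called lower, with a median log2 ratio of -1.62, and their summed signal was 127747 to 138802 in high gainers and 412936 to 441914 in low gainers. Of 8 T lymphocyte markers 6 were called lower and all 8 had separate arrays, and their sum was 91913 to 108221 in high gainers and 286072 to 318633 in low gainers. Among all tested probes, 3.99% were called lower and 16.3% were separate and lower. Ms4a1, which encodes CD20, was 3.79-fold lower and Cd3d, a part of the T cell receptor complex, 3.39-fold lower. Among the listed T lymphocyte markers, Cd3e and Cd8a had no value on all 6 arrays. None of 8 macrophage markers was called by limma, with 1 gene up and none down at an unadjusted p under 0.05 and none by the methods' test, and their sum was 1699674 to 1779447 in high gainers and 1742426 to 1961864 in low gainers. Most of the macrophage sum came from Lyz2, at 953288 to 1036871 in high gainers and 1113399 to 1281738 in low gainers. The part of lymphocytes in the lower signals of Gpr18, Gpr183, Rgs1 and the rest was not tested.

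**Figure D4:**
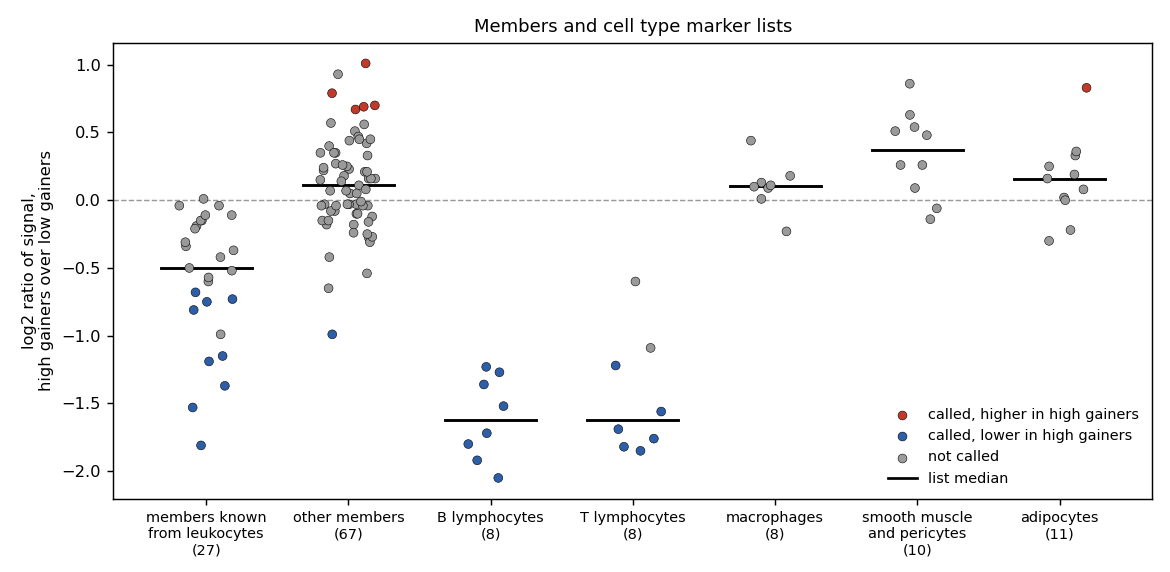
Log2 ratio, high over low gainers, of members known from leukocytes, of the other members, and of marker genes for B lymphocytes, T lymphocytes, macrophages, smooth muscle and pericytes, and adipocytes, with 1 point per gene and a line at the median. The leukocyte members have a median of -0.50 and both lymphocyte lists one of -1.62, whereas the other members have 0.11.

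Markers of other cell types were read in the same way. Among all tested probes, 2.50% were called higher and 3.99% called lower, and 20.3% were separate and higher and 16.3% separate and lower. Before adjustment 17.4% of all probes were higher and 13.6% lower (limma p under 0.05). None of 10 smooth muscle and pericyte markers was called by limma, but 7 were higher at an unadjusted p under 0.05 and had separate arrays, and their summed signal was 355518 to 377064 in high gainers and 276377 to 286924 in low gainers. Of 9 stromal markers 5 had separate arrays and were higher at an unadjusted p under 0.05, 1 of them called, Pi16 (1.98-fold higher, limma adjusted p = 0.000779), and Cd34 was 1.49-fold higher in signal and so under the fold required, whereas Thy1 was called lower, 1.67-fold. The stromal sum was 3984430 to 4492023 in high gainers and 3465957 to 4122133 in low gainers, ranges that overlap. Most of the stromal sum came from Dcn and Col3a1, which were not called (log2 ratios 0.12 and 0.06). Of 8 endothelial markers none was called by limma or by the methods' test and 3 were up before adjustment (p under 0.05), the largest log2 ratio being 0.55 for Tek, and the sum was 631157 to 695369 in high gainers and 564163 to 599758 in low gainers. The part of these cells in the higher signals of Gpr1, Ptgfr and the other higher members was not tested. Of 11 adipocyte markers 1 was called higher, Lep, which encodes leptin, and their median log2 ratio was 0.16. The fat label was borne out by markers such as Fabp4, the lipid carrier of fat cells, at a mean of 865468 in high gainers and 750927 in low gainers, whereas Adipoq, Lpl and Lipe were not analyzed here. All 9 skeletal muscle markers were called lower, with a sum of 1101238 to 1170709 in high gainers and 2055238 to 2263140 in low gainers, as were 3 of 6 epithelial markers, Krt18 (6.26-fold), Cdh1 (4.19-fold) and Krt8 (2.89-fold), with a sum of 80405 to 113675 in high gainers and 130133 to 157133 in low gainers. Most of the epithelial sum came from Cldn4, which was not called, at 64343 to 93118 in high gainers and 72020 to 102821 in low gainers. Of 6 brown or beige fat markers 1, Ucp1, was called lower and 5 had separate arrays, all lower, and the sum was 878269 to 922308 in high gainers and 1141937 to 1167510 in low gainers. Most of the brown or beige sum came from Cox8b, which was not called (log2 ratio -0.28). The part of muscle, epithelium and brown or beige fat cells in the members' lower signals was not tested. Shifting every ratio by the adipocyte median left 2 members higher, Gpr1 and Ptgfr, and 14 lower, against 5 and 10, and 188 probes higher and 956 lower against 396 and 632. Mc2r, Ptger3 and Akap12 were then higher by less than the fold required, at log2 ratios of 0.54, 0.52 and 0.50. Gpr65, Grk6, Ramp1 and S1pr4 were called lower under the shift and not in the main fit.

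Genes that act after cAMP and relatives of CREB were read against the 6.50% of all probes called in either direction. None of 6 measured genes of lipolysis was called by limma, none passed an unadjusted p of 0.05, and none was called by the methods' test. Lipe, also on this list, was not analyzed here. Pnpla2, adipose triglyceride lipase, had a mean of 1541190 in high gainers and 1542915 in low gainers, a log2 ratio of 0.00, and Plin1, the perilipin that coats the lipid droplet, had 0.25. Of 10 genes known to be induced by cAMP none was called by limma, with 1 gene up and 1 down at an unadjusted p under 0.05 and none by the methods' test. Nr4a1 and Ppargc1a, which are such targets, had log2 ratios of 0.04 and -0.06. Dio2, the deiodinase of brown fat, had a dim signal and a ratio of -0.58 (limma adjusted p = 0.043). Ucp1, which makes heat in brown and beige fat cells, is also induced by cAMP but stood in the list of brown fat markers and not in this one, and it had 6936, 7717 and 7927 in high gainers and 48242, 60758 and 46376 in low gainers. Its arrays lay far apart, and Ucp1 was 6.84-fold lower (limma adjusted p = 0.000174). Rapgef3, or EPAC1, which senses cAMP apart from protein kinase A, had signals of 13363, 13184 and 12705 in high gainers and 8453, 8467 and 8441 in low gainers. It was 1.55-fold higher with no overlap (limma adjusted p = 0.00293), the only call among 4 measured genes of cAMP effectors other than the kinase and of kinase inhibitors. Creb3l2, a membrane-bound relative of CREB that is released by stress of the endoplasmic reticulum, had 20072, 19390 and 19331 in high gainers and 12898, 11580 and 11099 in low gainers. It was 1.66-fold higher (limma adjusted p = 0.00279), the only call among 7 CREB family and coactivator genes, and Creb1 had -0.19. Receptors outside the rule gave no call by limma among 7, with 4 higher at an unadjusted p under 0.05 and none by the methods' test. Their largest ratios were 0.58 for the endothelin receptor Ednrb, 0.54 for the angiotensin receptor Agtr1a and 0.52 for the parathyroid hormone receptor Pth1r.

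Members with values on all 3 arrays of 1 pool and at most 1 of the other are given as signals, with no ratio. S1pr5, a lysophospholipid receptor, had 1037, 1629 and 1128 in high gainers and was blank in low gainers. Gpr84, a receptor for medium-chain fatty acids on myeloid cells, had 1705, 1413 and 2133 in high gainers and 1575 on 1 low-gainer array, and Gng13, a gamma subunit, had 1424, 1495 and 868 in high gainers and 747 on 1 low-gainer array. The reverse pattern, values on all low-gainer arrays, was that of the orphan receptors Gpr141b (1536 on 1 high-gainer array; 2950, 2537 and 2961 in low gainers) and Gpr176 (1050 on 1 high-gainer array and 2409, 1957 and 1869 in low gainers), of Gpr35 and of the serotonin receptor Htr5a. These signals were all low, and values beside the blanks in Gpr35, at 1534 in high gainers and 1350 to 1932 in low gainers, lay within 1 range. Pde4d, a cAMP phosphodiesterase, read 5048 and 6281 on 2 high-gainer arrays and was blank on the rest. Adcy3, Npy1r and Lpar1, all known in fat, had values on 2, 4 and 1 of the arrays, and Arrb1 and Pde4a on none. No matched serotonin receptor had a value on all 6 arrays, nor did Adra2c, the only adrenergic receptor the rule matched, and the adenosine receptors were not analyzed here. Adrb1, Adrb3, Adra2a, Gnai1 and Prkacb were likewise not analyzed here.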

How the data were processed

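Signal intensities were deposited after the authors had scanned the chemiluminescent arrays, read them with the 1700 analyzer software and normalized them between arrays by the quantile method. The deposited values carried blanks, and the sources used here do not give the rule that set them, although the study's methods tested only features above a noise limit. Quantile normalization forces 1 distribution on all arrays, so changes are relative. The intensities were put on the log2 scale without a further background correction and fitted with limma 3.58.1 in R 4.3.3 over the 15821 probes with values on all 6 arrays, with high gainers over low gainers as the only term. Means ± SD are of the intensities. A call required at least a 1.5-fold difference and p under 0.01 after Benjamini-Hochberg adjustment over these probes. The number of arrays limits the precision. Columns of other samples numbered 0.

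Probes were named from the platform annotation, in which 14411 had 1 symbol, 247 several and 18354 none, and 14402 symbols were updated through gene identifiers in the RefSeq tables of GRCm38.p6, which also gave promoters and gene order. The brightest probe stood for a gene, and 4 members had several tested probes. Dim probes are the lowest 33.3% by mean signal. Named members in this range that are not marked above included Adcy4, Gnaq, Gpr132, Gpr137c, Gpr153, P2ry10b, P2ry12, P2ry14, Pde4dip, Ramp3, Rgs18 and S1pr3. Ptgds, Cdh1, Krt18 and Thy1, which are not members, were dim as well. The text names every called member, the 2 highest and the 2 lowest ratios of each group, members with values in 1 pool only, members best known in fat, and further members picked after their values were seen. The members and lists were chosen with earlier results of these data known. The ANOVA of the study's methods (2 groups, unadjusted p under 0.01, 1.5-fold) was an alternative, as were other normalizations, filters, thresholds, an offset, an array-number block and the removal of each array. The fitting steps were tested on simulated data.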

Additional observations from a re-analysis of the deposited data

How the results depend on the processing

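Against 5 members higher and 10 lower, the counts were 2 and 14 when ratios were shifted by the adipocyte-marker median of 0.16, 3 and 10 with probes measured on at least 2 arrays of each pool, 1 and 5 at 2-fold, 5 and 4 without probes below the median signal, 1 and 1 by the methods' ANOVA after Benjamini-Hochberg adjustment, and 5 and 1 without the members known from leukocytes, which was chosen after seeing the data. Leaving out 1 array gave 1 to 2 higher and 6 to 8 lower. Higher calls numbered 2 without low gainers replicate 1 and likewise without high gainers replicate 3, and 1 without any other array, and lower calls numbered 6 without high gainers replicate 1 or 2. Gpr18, Rgs1, Gpr171, Gpr183, P2ry13, Hcar1 and Gpr1 were called in all 6 of these fits. A second quantile normalization, median centering, an offset of 2848, an intensity trend with robust estimation, no fold threshold, the mean over a gene's probes, no dim probes and the methods' unadjusted ANOVA kept both counts within 1.5 times. The labels number the arrays of each pool alike and do not say whether arrays of 1 number shared a step of the work. With 3 arrays per pool this could not be settled. The correlations of their deviations were 0.04, -0.11 and 0.27, 3 of 6 arrays correlated best with their own number, and the array number as a replicate block gave 1 higher and 6 lower. The median over members was -0.20 under the adipocyte shift, and the shift moved the median of all probes by 0.165.

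Some uncalled members named in the text changed sign. Under the adipocyte shift these were Adcy6 (-0.01), Ffar2 (-0.11), Ffar4 (-0.10), Lpar6 (-0.08), P2ry6 (-0.16), Pde2a (0.00) and S1pr3 (-0.01), and the shift, which turns any ratio between 0 and its own size, is the cause by construction. Without 1 array the log2 ratio ran from -0.06 to 0.13 for Ffar2, -0.15 to 0.07 for Gnai3, -0.46 to 0.20 for Gnaq, -0.36 to 0.23 for Gpr132, -0.06 to 0.00 for Gpr34, -0.13 to 0.06 for Grk5, -0.06 to 0.16 for Lpar6, -0.39 to 0.02 for P2ry14, -0.10 to 0.07 for P2ry6, -0.20 to 0.01 for Prkar2b, -0.28 to 0.05 for Rgs18 and -0.09 to 0.04 for S1pr1. None of these members was called in any setting. With 1 RNA pool per phenotype, no fit measures variation between mice, and 27 of the 94 members were dim.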
